A study of Mus musculus with 36 samples.

Results

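The comparison set the 6 h response to interferon beta (IFN-b) of BV-2 cells beside that of primary mouse microglia, on 8 of the 36 arrays of the series. BV-2 is an immortalised mouse microglial line, so its replicates are cultures of a single line, and here it had received a control siRNA. The primary microglia came from wild-type (WT) mice and carried no siRNA per the labels. In each system 2 arrays of untreated cells (0 h) and 2 arrays of cells given 500 U/ml IFN-b for 6 h were used. The labels call replicates biological without saying how many animals or cultures they came from. The microglia arrays were those of the first of 3 runs of 12 arrays in the order of deposition, and the BV-2 arrays those of the second. Cell system, siRNA and run cannot be told apart, whereas a shift shared by all arrays of a run cancels in a response, the level at 6 h minus that at 0 h. Of 12394 genes on the array, 7529 were measured, that is, lay above the median of their array on at least 2 of the 8 arrays. Values are levels on a log2 scale as deposited, responses are differences of such levels with the standard error (SE) after the ± sign, and a gene rose, fell or differed where its adjusted p was under 0.05 in limma with Benjamini-Hochberg adjustment over all 7529 genes.

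IFN-b binds a receptor of the chains Ifnar1 and Ifnar2, whose kinases Jak1 and Tyk2 start JAK-STAT signalling. A complex that includes Stat2 and Irf9 then binds the interferon-stimulated response element (ISRE) in the promoters of antiviral genes. The gamma-activated site (GAS) is the other main promoter element of interferon signalling. Usp18, an interferon-induced protease that removes the ubiquitin-like modifier Isg15, also limits signalling at the receptor, and Socs1 restrains the kinases. Microglia, the macrophages of the brain, answer type I interferon with antiviral proteins, chemokines and antigen presentation genes.

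Promoter sequences are shown for the 2 leading genes of the class that rose in both systems (Cxcl10 and Gbp2) and the 2 leading genes that rose in microglia with a smaller, uncalled change in BV-2 (Gbp2b and Cxcl9), because the first pair and the second contrast with each other. Each is the 250 bases before a start of transcription in RefSeq on GRCm38.p6, written 5′ to 3′ in the direction of the gene, with ISRE letters in capitals. Cxcl10 lies at chr5:92348890-92349139 on the minus strand, Gbp2 at chr3:142620413-142620662 on the plus strand, Gbp2b at chr3:142594597-142594846 on the plus strand and Cxcl9 at chr5:92328080-92328329 on the minus strand. The Gbp2b gene itself begins at base 142594816 in RefSeq, so the last bases shown for it lie within the gene.
Cxcl10: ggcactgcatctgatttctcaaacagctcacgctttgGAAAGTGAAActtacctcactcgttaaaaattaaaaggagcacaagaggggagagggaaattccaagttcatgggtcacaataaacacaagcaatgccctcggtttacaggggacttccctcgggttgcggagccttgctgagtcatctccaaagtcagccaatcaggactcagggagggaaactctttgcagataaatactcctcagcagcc
Gbp2: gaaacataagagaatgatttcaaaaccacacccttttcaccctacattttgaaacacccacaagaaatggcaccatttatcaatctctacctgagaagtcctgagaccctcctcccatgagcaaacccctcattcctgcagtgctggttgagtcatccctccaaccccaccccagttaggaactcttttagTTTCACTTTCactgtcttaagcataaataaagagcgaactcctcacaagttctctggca
Gbp2b: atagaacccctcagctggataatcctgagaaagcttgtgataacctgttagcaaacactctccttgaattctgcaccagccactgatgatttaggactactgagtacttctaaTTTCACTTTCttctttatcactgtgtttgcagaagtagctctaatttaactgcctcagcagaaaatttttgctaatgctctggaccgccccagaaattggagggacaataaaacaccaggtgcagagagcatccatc
Cxcl9: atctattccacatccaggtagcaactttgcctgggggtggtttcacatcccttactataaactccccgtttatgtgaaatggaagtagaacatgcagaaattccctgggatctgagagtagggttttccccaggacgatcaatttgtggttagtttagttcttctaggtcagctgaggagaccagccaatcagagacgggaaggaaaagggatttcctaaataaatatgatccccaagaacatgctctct

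The ISRE was searched as 2 copies of GAAA separated by any 2 bases, on both strands, and occurred once in the promoters of Cxcl10, Gbp2 and Gbp2b and was not found in these bases of Cxcl9. Over the genes that rose in both systems, 109 of 131 had a promoter in the table and 25 of these held it (22.9%). It occurred in 16 of 304 promoters of genes that rose in the microglia-only class (5.26%), in 7 of 298 of those that fell in it (2.35%), in 218 of the 6196 tested genes with a promoter (3.52%) and at 978 of all 32851 starts in the table (2.98%). The share was 20.4% among the genes risen in both systems whose responses differed and 25% among those whose responses were not called different. For the GAS letters TTCNNNGAA the shares were 11.9% in the shared class, 6.91% and 8.72% in the risen and fallen microglia-only genes and 6.91% of the tested genes. For a form of the kB site bound by NF-kB, GGGA and TTCC separated by any 2 bases, they were 5.5%, 3.29%, 1.34% and 1.63%. A gene with several starts counted if any start held the letters, and the 3 motifs can overlap. A match describes the letters and not a bound site.

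Array medians lay between 5.650 and 5.819, replicates correlated at 0.987 to 0.992, and microglia arrays correlated with BV-2 arrays at 0.852 to 0.901. Of 12 microglia and macrophage markers on the array, all 12 lay above the array median on every microglia array (mean level 11.82 to 12.03), against 9 on the BV-2 arrays (mean level 8.42 to 9.05). C1qa, a complement subunit typical of microglia, read 3.87 to 4.32 on the BV-2 arrays and 12.92 to 13.08 on the microglia arrays, and the fractalkine receptor gene Cx3cr1 read 4.55 to 5.66 and 9.35 to 10.78. General macrophage markers such as Csf1r and Cd68 were thus high on the BV-2 arrays, while C1qa was below the array median and Cx3cr1 at or below it. C1qb, another complement subunit of the marker list, split by replicate on the BV-2 arrays. In replicate 1 it read 3.83 at 0 h and 4.53 at 6 h, under the array median. In replicate 2 it read 6.02 and 7.24, above the median. Aif1, also of that list, was likewise higher on both BV-2 arrays of replicate 2, whereas Cd68 was not. What set the BV-2 replicates apart was not tested. Among markers of other cells, 5 to 7 of 9 genes of the oligodendrocyte lineage and 3 to 4 of 10 of astrocytes were above the median on both arrays of a microglia group, with mean levels of 6.60 to 7.18 and 5.65 to 6.14. On the BV-2 arrays 1 of 9 and 2 of 10 were, with mean levels of 4.64 to 4.70 and 4.58 to 4.74. No marker of fibroblasts or endothelium was above the median at 0 h, and of the 9 only Kdr, a receptor for vascular growth factors, was so in microglia at 6 h (4.73 and 4.64, then 7.74 and 7.81). Whether RNA of other cells takes part in the microglia values was not tested.

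In microglia 1025 genes rose at 6 h and 1649 fell, which is 13.6% and 21.9% of the genes tested. In BV-2 cells 137 rose (1.82%) and 0 fell (0%), with 409 higher and 237 lower at an unadjusted p under 0.05. The SE of a response (median 0.192) was the same in both systems by construction, since a joint fit gave each gene a single spread. It does not compare the noise of the systems. The median size of a response was 0.429 in microglia and 0.149 in BV-2. The difference of the responses passed for 810 genes. In 443 of them (5.88%) the BV-2 response was the lower, and in 367 (4.87%) the higher, 364 of them genes that fell in microglia. When each array was centred on its median the split was 475 lower and 242 higher. The majority turned to 1071 higher and 831 lower with replicate number as a block in the fit, where 11 genes fell in BV-2. It also turned to 589 higher and 573 lower with the 24 h arrays in the fit. Without 6 h replicate 1 of microglia the split was 525 higher and 444 lower, so neither direction prevailed throughout. The excess of fallen genes in microglia likewise shrank to 1275 fallen and 1171 risen with centring, and a log2 change of at least 1 left 645 risen and 618 fallen.

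The genes fell into classes by these calls. A shared gene passed in both systems in the same direction, and a microglia-only or BV-2-only gene passed in 1 system, not in the other, and passed the test of the difference as well. There were 131 shared genes, all risen, 740 microglia-only genes (377 risen, 363 fallen), 2 BV-2-only genes and 1 gene with opposite responses. A further 1802 genes passed in microglia and 3 in BV-2 with no called difference, so that their class is not resolved, 6 genes passed the difference alone, and 4844 passed nothing. Shared genes rose by a median of 3.13 in microglia (range 0.55 to 7.96) and 1.87 in BV-2 (0.87 to 7.24), against -0.16 and -0.06 over all genes tested. In 61 shared genes the responses differed, and in 60 of these the microglia response was the larger. The exception was Slfn3, a Schlafen gene of low level. Of the shared genes 4 were never above the array median on a BV-2 array. Another 1 never was on a microglia array, so it was measured only through BV-2 arrays. Across the 131 shared genes, which share arrays and are not independent, and were chosen for rising in both, the 2 responses correlated at 0.722 (Pearson), and across all 7529 genes at 0.610 (Pearson) and 0.367 (Spearman). The microglia-only genes that rose did so by a median of 1.66 with 0.11 in BV-2, and those that fell by a median of -1.33 with -0.07 in BV-2. Of the 740, 133 were above the array median on fewer than 2 BV-2 arrays, 125 of them on none, so a change in BV-2 could be below what the array shows there. Among the named genes 18 were under the median on all 4 BV-2 arrays, namely C2, Cfb, Ch25h, Cmpk2, Cxcl9, Cxcl11, Dkk2, Gbp2b, Gpr34, Ifih1, Nfkbie, P2ry12, Relb, Serping1, Slfn1, Socs1, Tnfsf10 and Traf1. Of these, 13 were measured through only the 2 microglia arrays on which they were high. They were Cfb, Cmpk2, Cxcl9, Cxcl11, Dkk2, Gbp2b, Gpr34, Nfkbie, Serping1, Slfn1, Socs1, Tnfsf10 and Traf1. Such a gene had to differ between microglia at 0 h and 6 h. Their differences describe microglia against low BV-2 readings.

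**Figure D1:**
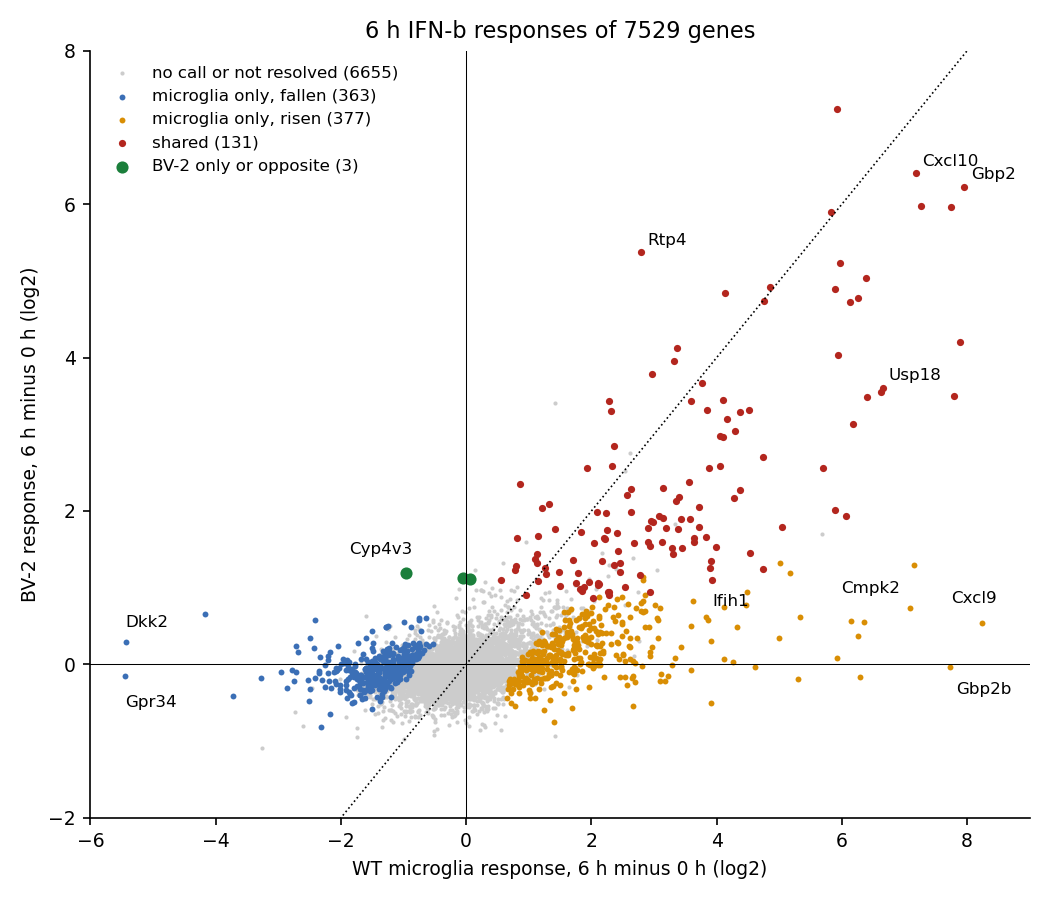
Response of each of 7529 genes (points) in WT microglia (horizontal axis) and in BV-2 cells (vertical axis), both as 6 h minus 0 h on the log2 scale with 2 arrays per group, coloured by class. Shared genes lie mostly below the dotted line of equal responses, while the microglia-only genes spread along the horizontal axis at BV-2 responses between -0.82 and 1.33.

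The class sizes depended on single arrays and on the choice of WT arrays. Without 1 array the number of genes with different responses was 389, 324 or 377 (untreated replicate 1, untreated replicate 2 or 6 h replicate 2 of microglia), 516, 416, 330 or 454 (untreated replicate 1, untreated replicate 2, 6 h replicate 1 or 6 h replicate 2 of BV-2) and 969 without 6 h replicate 1 of microglia. The microglia-only class held 362, 288 and 343, then 472, 382, 303 and 427, and 914 genes in the same order, and the shared class 94 to 113. The number responding in microglia was 1716 without untreated replicate 1 and 1670 without untreated replicate 2. WT microglia were also deposited in the third run, where the array labelled untreated replicate 1 carried high interferon genes (below). With the third-run WT arrays in place of the first and that array left out, so that 1 untreated array stood for its group, 218 genes responded in microglia (208 rose, 10 fell), 111 in BV-2, 92 were shared, and the responses of 12 differed. The spread then comes from the other groups, and the lone array is assumed to vary like them. Differences given for single genes with the third-run WT arrays leave out the array labelled untreated replicate 1, and none of the named differences called with the first-run arrays was called with them except those of Gbp2b and Ifih1. When all 24 arrays of the first and second run entered a single fit, 318 genes differed and 27 of the 63 named calls were lost (adjusted p = 0.0549 to 0.413). These were the calls of Aim2, C1ra, C2, Casp4, Ccl12, Ch25h, Gbp2, Idi1, Ifih1, Iigp1, Il1rn, Irf5, Jak2, Mpeg1, Mx1, Mx2, P2ry12, Relb, Serping1, Slc40a1, Slfn3, Socs1, St6gal1, Stat3, Traf1, Uba7 and Zbp1.

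In the receptor chain the genes of the receptor itself did not pass in either system. Ifnar1 read 8.41 and 8.67 untreated and 8.01 and 8.52 at 6 h in microglia, and 6.82 and 6.84 then 6.79 and 7.05 in BV-2. Ifnar2 changed by -0.13 ± 0.202 in microglia (adjusted p = 0.657) and 0.14 in BV-2 (adjusted p = 0.971), and Jak1 by 0.29 and 0.10 (adjusted p = 0.173 and 0.981). Tyk2 rose in microglia by 1.51 ± 0.210 (adjusted p = 0.00113) and changed by 0.64 in BV-2 (adjusted p = 0.357), a difference that did not pass (adjusted p = 0.103). Stat2 read 5.55 and 5.67 untreated and 9.69 and 10.10 at 6 h in microglia, and 4.49 and 5.00 then 8.03 and 7.57 in BV-2. It rose in both without overlap, and its difference of -1.24 ± 0.344 missed the threshold (adjusted p = 0.057; 0.0455 without untreated BV-2 replicate 1, and called after renewed quantile normalization at -1.46 or a floor at the array median at -1.97). With replicate number as a block in the fit, the differences of Tyk2 (-0.87) and Stat2 were called (adjusted p = 0.027 and 0.0409). Irf9 rose by 1.22 in microglia and 2.04 in BV-2, and was not called different (0.83 ± 0.395, adjusted p = 0.214). Irf9 lost the microglia call without untreated replicate 1 or 6 h replicate 2 of microglia, and the BV-2 call without 6 h replicate 1 of BV-2.

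The counts of the gene lists here and below stand beside these shares of all genes tested. In microglia 13.6% rose and 21.9% fell, and in BV-2 1.82% rose and 0% fell. The BV-2 response was called lower in 5.88% and higher in 4.87%. Over the 13 measured genes of receptors and JAK-STAT signalling, 6 rose and 1 fell in microglia and 3 rose in BV-2. The 1 that fell was Ifngr1, a chain of the receptor for interferon gamma, from 10.06 and 10.29 to 8.32 and 8.63 in microglia. In BV-2 it read 7.74 and 7.88 then 7.57 and 7.66, and the responses differed by 1.50 ± 0.243 (adjusted p = 0.00945). Jak2 rose in both by 2.42 and 1.48, and the difference of -0.95 ± 0.219 (adjusted p = 0.0327) was lost without any single array but 6 h replicate 1 of microglia (adjusted p = 0.0589 to 0.108), and was 0.22 with the third-run WT arrays (adjusted p = 0.99). The call of Stat3 (difference -1.18, adjusted p = 0.0419) was lost without each of the 8 arrays in turn (adjusted p = 0.0501 to 0.138).

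Among regulators of the response, the transcription factor Irf7, which drives later interferon production, read 6.55 and 6.39 untreated and 12.48 and 12.82 at 6 h in microglia, and 5.58 and 5.98 then 8.76 and 9.08 in BV-2. All 4 treated arrays lay above all 4 untreated ones, with the BV-2 arrays well below those of microglia at 6 h, and the responses of 6.18 ± 0.207 and 3.14 differed by -3.04 ± 0.293 (adjusted p = 0.00151). Socs1 read 4.56 and 4.34 then 7.34 and 7.43 in microglia, and 3.88 and 4.47 then 4.18 and 4.38 in BV-2, where the groups overlapped. Its responses differed by -2.83 ± 0.303 (adjusted p = 0.00208). Irf1, a factor that also acts in interferon gamma signalling, rose by 2.64 and 1.99, a difference of -0.65 ± 0.246 that was not called (adjusted p = 0.132). Irf5 rose in microglia by 1.75 and differed by -1.46 (adjusted p = 0.0291), a call lost without 5 of the arrays (untreated replicates 1 and 2 and 6 h replicate 2 of microglia, 6 h replicate 1 and untreated replicate 2 of BV-2; adjusted p = 0.07 to 0.0977) and with the mean of its probe sets (-0.75, adjusted p = 0.0711). Another kept probe set of Irf5 changed by -0.00 in microglia and -0.04 in BV-2, so the response depended on the probe set. Of the 12 measured members of this list 7 rose in microglia and 2 in BV-2.

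Members of the list of antiviral effectors made up 23 of the 131 shared genes. Of 31 measured, 27 rose in microglia, 23 in BV-2, and in 13 the BV-2 response was lower, with median responses of 3.56 and 2.06. Ifit1 and Ifit3, which bind viral RNA or help do so, rose in both systems with no called difference. Ifit1 read 6.41 and 6.48 then 12.16 and 12.39 in microglia and 3.15 and 4.77 then 9.77 and 9.96 in BV-2, responses of 5.83 ± 0.431 and 5.90 (difference 0.08 ± 0.609, adjusted p = 0.95). The sign of this difference was not stable, at -0.73 without untreated replicate 1 of BV-2, whose untreated arrays were far apart, and -0.02 with each array centred. With values under the array median raised to it the difference was -1.63 (adjusted p = 0.00398), since both untreated BV-2 arrays lay under that floor. Ifit3 rose by 5.93 in microglia and 7.24 in BV-2 (difference 1.31 ± 0.480, adjusted p = 0.124; 1.92 and adjusted p = 0.0104 without untreated BV-2 replicate 2). Rtp4, a chaperone of receptors on their way to the cell surface, had the most positive difference of the shared class, 2.58 ± 0.906, which did not pass (adjusted p = 0.111). Its untreated BV-2 arrays, 4.13 and 6.63, were far apart.

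Other effectors were called lower in BV-2. Oasl1, a relative of the oligoadenylate synthetases, read 4.83 and 4.90 then 10.57 and 10.57 in microglia, and 8.13 and 8.34 then 10.84 and 10.74 in BV-2. Its difference was -3.14 ± 0.212 (adjusted p = 0.000286), with the untreated level high in BV-2 and the 6 h levels alike. Oas3, a synthetase that activates RNase L, rose by 5.05 and 1.80 (difference -3.25 ± 0.363, adjusted p = 0.00229), though its BV-2 response was not called without 6 h replicate 1 or untreated replicate 2 of BV-2. The exonuclease Isg20 rose by 6.62 and 3.55 (difference -3.08 ± 0.534, adjusted p = 0.0122). Ifih1, the cytosolic sensor of long double-stranded RNA, was the 1 member of this list in the microglia-only class. It read 8.11 and 8.38 then 11.93 and 12.21 in microglia and 3.67 and 3.10 then 4.08 and 3.91 in BV-2, where all 4 arrays were under the array median, and the difference was -3.21 ± 0.317 (adjusted p = 0.00155). The list is a selection, and Cmpk2, Ddx60 and Ifi44l, which are outside it, were microglia-only too (below).

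The list of interferon-inducible GTPases, which attack viruses or the vacuoles of intracellular microbes, had 10 measured members. All 10 were shared, with a lower BV-2 response in 6 and medians of 6.11 and 3.84. Gbp2b, a guanylate-binding GTPase outside this list, was microglia-only (below). Gbp2 read 4.34 and 4.47 then 12.18 and 12.54 in microglia, and 3.81 and 4.46 then 10.18 and 10.54 in BV-2. The untreated arrays overlapped between the systems and the treated ones did not. Its responses of 7.96 ± 0.250 and 6.22 differed by -1.73 ± 0.353 (adjusted p = 0.0215). That call was lost without untreated replicate 1 or 2 or 6 h replicate 2 of microglia or 6 h replicate 1 of BV-2 (adjusted p = 0.0671 to 0.076), and the difference was 3.09 with the third-run WT arrays (adjusted p = 0.103). Gbp6 rose by 6.40 and 3.48 (difference -2.92 ± 0.359, adjusted p = 0.00343; 0.49 with the third-run WT arrays, adjusted p = 0.967), and Mx2 by 4.28 and 2.17 (difference -2.10 ± 0.346, adjusted p = 0.0103). Mx1 read 3.29 and 4.18 then 11.22 and 11.74 in microglia, and 3.48 and 3.31 then 9.23 and 9.48 in BV-2. Its difference of -1.78 ± 0.422 (adjusted p = 0.0359) was lost without any single array but 6 h replicate 1 and untreated replicate 2 of microglia (adjusted p = 0.0612 to 0.11). Iigp1 differed by -3.68 ± 0.686 (adjusted p = 0.0158), a call lost without untreated replicate 1 or 6 h replicate 2 of microglia (adjusted p = 0.0604 and 0.0638).

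In the Isg15 pathway Usp18 read 5.68 and 5.99 untreated and 12.56 and 12.41 at 6 h in microglia. In BV-2 it read 8.38 and 8.59 untreated and 12.15 and 12.04 at 6 h. The untreated levels stood apart, and the 6 h levels were closer, with both BV-2 arrays below both microglia arrays. The responses of 6.65 ± 0.173 and 3.61 differed by -3.04 ± 0.244 (adjusted p = 0.00057), a call kept without any single array, while the difference was 0.03 with the third-run WT arrays (adjusted p = 0.999), whose untreated level was 9.31. Ube2l6, the conjugating enzyme for Isg15, rose by 3.45 and 1.52 (difference -1.93 ± 0.283, adjusted p = 0.00635), though its BV-2 response was not called without 6 h replicate 2 of BV-2. Uba7, the activating enzyme, rose by 3.13 and 1.60, and its difference of -1.53 (adjusted p = 0.0286) was lost without 5 of the arrays (adjusted p = 0.0667 to 0.0935), namely both untreated arrays and 6 h replicate 2 of microglia, and untreated replicate 1 and 6 h replicate 2 of BV-2. Its BV-2 response was not called without 6 h replicate 1 or untreated replicate 2 of BV-2.

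**Figure D2:**
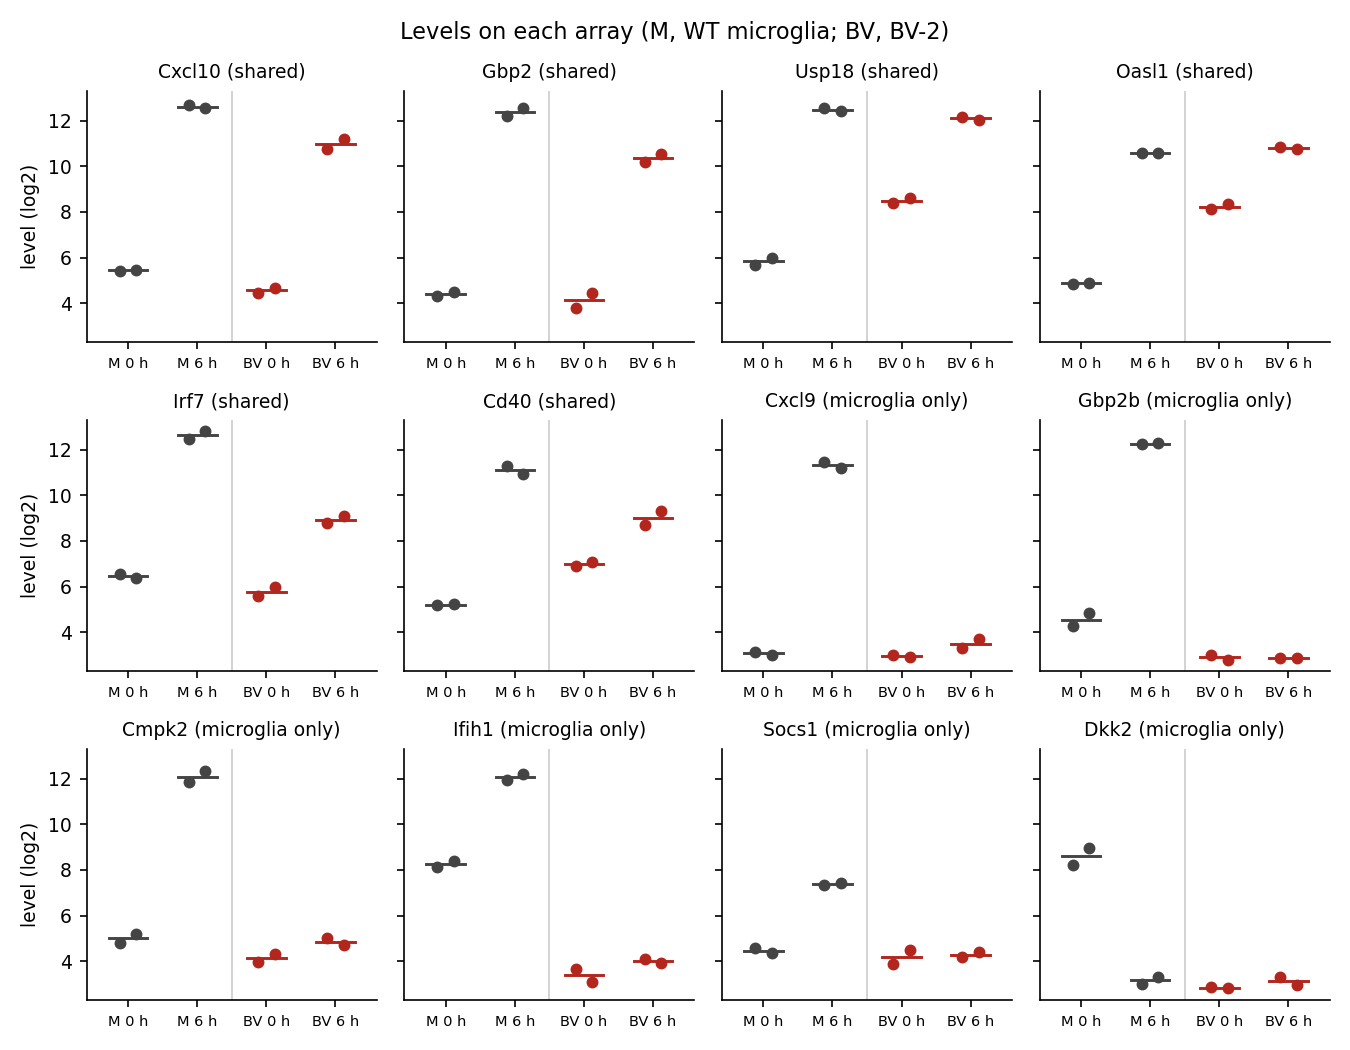
Level of 12 genes on each of the 8 arrays (points, log2) with the mean of each group (bars), for WT microglia (M, grey) and BV-2 cells (BV, red) at 0 h and 6 h. Cxcl10 reached 10.73 and 11.19 in BV-2 at 6 h, while Cxcl9 stayed at 3.29 and 3.72.

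Chemokines, the secreted proteins that draw leukocytes, had the widest gap between list medians. Of 15 measured, 13 rose in microglia and 3 in BV-2, and in 10 the BV-2 response was lower, with medians of 5.16 and 0.42. Cxcl10, which attracts T cells through the receptor Cxcr3, read 5.43 and 5.45 then 12.70 and 12.53 in microglia, and 4.43 and 4.69 then 10.73 and 11.19 in BV-2. Its responses of 7.18 ± 0.193 and 6.40 were not called different (-0.78 ± 0.273, adjusted p = 0.113), but were after renewed quantile normalization (adjusted p = 0.0376) and with values under the array median raised to it (-1.52, adjusted p = 0.0092). With replicate number as a block in the fit the difference of Cxcl10 was called too (adjusted p = 0.0253). With the third-run WT arrays its sign turned, to 2.40. The other ligands of that receptor were called different. Cxcl9 read 3.14 and 3.02 then 11.44 and 11.21 in microglia, and 3.01 and 2.91 then 3.29 and 3.72 in BV-2, a difference of -7.70 ± 0.262 (adjusted p = 1.06e-05). Cxcl11 read 4.95 and 4.10 then 11.01 and 10.61, and 3.87 and 3.94 then 3.51 and 3.98, a difference of -6.44 ± 0.418 (adjusted p = 0.00024). On the BV-2 arrays both stayed under the array median. With the third-run WT arrays the differences were -3.58 and -2.72 and were not called.

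Ccl2, which attracts monocytes, was already high in untreated BV-2 cells, at 9.44 and 11.29, and read 10.91 and 12.21 at 6 h, against 6.66 and 6.77 then 11.94 and 11.81 in microglia. Ccl5 rose in microglia from 6.31 and 5.67 to 12.31 and 12.19, and read 5.92 and 8.43 then 6.55 and 8.54 in BV-2, where each replicate kept its own level. Its difference of -5.89 ± 1.16 (adjusted p = 0.0193) was lost without untreated replicate 1 or 2 or 6 h replicate 2 of microglia (adjusted p = 0.053 to 0.0767). Ccl12 had the most negative difference of the shared class, -4.30 ± 0.967 (adjusted p = 0.0301). That call was lost without any array of microglia or untreated replicate 2 of BV-2 (adjusted p = 0.0672 to 0.0955). The BV-2 response itself was weakly supported (adjusted p = 0.0478), its treated arrays read 7.08 and 9.51, and the gene stayed in the shared class in 2 of the 8 cases with 1 array left out.

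Among cytokines and co-stimulatory genes 11 of 16 rose in microglia and 6 in BV-2, with a lower BV-2 response in 9. Cd40, through which T cells activate macrophages, read 5.19 and 5.23 then 11.28 and 10.94 in microglia, and 6.89 and 7.09 then 8.70 and 9.30 in BV-2. The difference was -3.89 ± 0.318 (adjusted p = 0.000622). Tnfsf10, a death ligand, rose by 4.54 and 1.45 (difference -3.09 ± 0.306, adjusted p = 0.00155), though not in BV-2 without untreated replicate 1 or 6 h replicate 2 of that line. Il1rn, the antagonist of interleukin-1, rose by 5.01 in microglia and changed by 1.33 in BV-2 (adjusted p = 0.0575), and the latter passed without 6 h replicate 1 or untreated replicate 2 of BV-2. Acod1, the enzyme that makes itaconate, read 6.23 and 5.52 then 12.98 and 13.06 in microglia, and 9.87 and 10.85 then 11.38 and 11.92 in BV-2. Its difference of -5.86 ± 0.504 (adjusted p = 0.000831) was 0.03 with the third-run WT arrays (adjusted p = 0.999). Il6 was 1 of the 3 genes called in BV-2 with no called difference. It rose there from 3.37 and 3.97 to 6.31 and 7.84 (adjusted p = 0.01) and changed by 1.42 in microglia (adjusted p = 0.0565).

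The microglia-only genes that rose with the largest differences were Gbp2b, Cxcl9, Cxcl11, Cmpk2, Ccl5 and Acod1. Gbp2b, a guanylate-binding GTPase like its neighbour on chromosome 3, Gbp2, read 4.26 and 4.82 then 12.25 and 12.28 in microglia, and 3.01 and 2.80 then 2.85 and 2.88 in BV-2. Its difference was -7.76 ± 0.287 (adjusted p = 1.06e-05), set against BV-2 readings far under the array median. Gbp genes are close in sequence, and how far their probe sets respond to each other's RNA was not tested. Cmpk2, a mitochondrial nucleotide kinase, read 4.78 and 5.21 then 11.86 and 12.31 in microglia, and 3.95 and 4.31 then 5.01 and 4.72 in BV-2. All 4 BV-2 arrays were again under the median, and the difference was -6.36 ± 0.333 (adjusted p = 7.03e-05). Another kept probe set of Cmpk2 changed by 6.81 in microglia and 1.95 in BV-2, a difference of -4.86. How far Cmpk2 changed in BV-2 thus depended on the probe set. Slfn1, a Schlafen gene known from growth control in mouse T cells, rose by 5.33 in microglia and changed by 0.62 in BV-2 (difference -4.71 ± 0.211, adjusted p = 3.27e-05). It was measured only through the 2 microglia arrays on which it was high, with all 4 BV-2 arrays under the array median. Slfn4 rose by 4.85 and 4.92 and Slfn2 by 2.04 and 1.59, with no called difference (adjusted p = 0.96 and 0.432). The sign for Slfn4 turned with centring (-0.03) and that for Slfn2 with the third-run WT arrays (0.35). Slfn2 was not called in BV-2 without untreated replicate 1 or 6 h replicate 2 of that line. The larger BV-2 response of Slfn3 (difference 1.50, adjusted p = 0.0477) was lost without any single array but untreated BV-2 replicate 2 (adjusted p = 0.0554 to 0.151). It was also lost with values under the array median raised to it (0.91, adjusted p = 0.0502).

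Of 11 nucleic acid sensors 9 rose and 1 fell in microglia and 5 rose in BV-2. Ifi209, of the family that senses DNA, rose by 7.26 ± 0.256 and 5.97, not called different (-1.28 ± 0.362, adjusted p = 0.0594; called without untreated replicate 1 or 6 h replicate 2 of BV-2, adjusted p = 0.033 and 0.0485, and after renewed quantile normalization, -1.45; 0.62 with the third-run WT arrays). With replicate number as a block in the fit the difference of Ifi209 was called as well (adjusted p = 0.00486). Zbp1, a sensor of Z-form nucleic acid, rose by 5.93 and 4.04. Its difference of -1.90 (adjusted p = 0.0247) was lost without any single array but untreated replicate 2 of microglia and untreated replicate 1 of BV-2 (adjusted p = 0.0517 to 0.0777), and was 0.40 with the third-run WT arrays (adjusted p = 0.99). The calls of Sting1 (difference -1.60, adjusted p = 0.0448) and Aim2 (-1.53, adjusted p = 0.0213) were lost without 6 and 4 of the arrays (adjusted p = 0.0667 to 0.135 and 0.0563 to 0.0805), and with low values raised to the array median that of Aim2 was 0.06. For Sting1 these were all but 6 h replicate 1 of microglia and untreated replicate 1 of BV-2, and for Aim2 untreated and 6 h replicate 2 of microglia, and untreated replicate 1 and 6 h replicate 2 of BV-2.

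Class I antigen presentation rose in 9 of 13 measured members in microglia and 5 in BV-2, with medians of 1.76 and 0.63. Psmb8, a subunit of the immunoproteasome, read 9.63 and 9.65 then 12.11 and 12.14 in microglia, and 10.49 and 10.65 then 11.03 and 11.21 in BV-2, a difference of -1.93 ± 0.212 (adjusted p = 0.00221). The peptide transporter gene Tap1 rose by 3.997 and 1.53 (difference -2.47 ± 0.328, adjusted p = 0.00427), and its BV-2 call was lost without 6 h replicate 1 or untreated replicate 2 of BV-2. Another kept probe set of Tap1 changed by 1.72 in microglia and 0.17 in BV-2. Tap2 and Psmb9 differed by -1.98 and -1.87 (adjusted p = 0.00428 and 0.00983). The BV-2 response of Tap2 (0.95, adjusted p = 0.0496) was not called without any of the 8 arrays, and that of Psmb9 not without untreated replicate 1 or 2 or 6 h replicate 2 of BV-2.

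Among cell death genes 7 of 10 rose and 1 fell in microglia, and 3 rose in BV-2. Daxx rose by 3.38 and 1.77 (difference -1.62 ± 0.209, adjusted p = 0.00389). Bak1, a pore former of the mitochondrial outer membrane, rose by 1.25 in microglia and changed by -0.17 in BV-2 (difference -1.42 ± 0.238, adjusted p = 0.011). Bcl2l11, which promotes apoptosis, fell by 1.88 in microglia and changed by -0.02 in BV-2. Its difference of 1.86 (adjusted p = 0.0142) was lost without untreated replicate 2 of microglia (1.71, adjusted p = 0.0607). The difference of Casp4 (-1.13, adjusted p = 0.0317) was lost without 6 arrays, all but 6 h replicate 1 of microglia and untreated replicate 1 of BV-2 (adjusted p = 0.0638 to 0.0998).

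Complement genes rose in microglia in 4 of 10 cases and in BV-2 in 0, and all 4 differed. Over all genes tested 1.82% rose in BV-2, so 0 of 10 is near that share. Cfb, a factor of the alternative pathway, read 3.71 and 4.33 then 8.54 and 8.44 in microglia, and 4.30 and 4.15 then 4.35 and 5.66 in BV-2 (difference -3.69 ± 0.545, adjusted p = 0.0065). The others depended on single arrays. The difference of C2 (-2.06, adjusted p = 0.0221) was lost without untreated replicate 1 or 6 h replicate 2 of microglia or 6 h replicate 1 or untreated replicate 2 of BV-2 (adjusted p = 0.0547 to 0.074). That of Serping1 (-1.82, adjusted p = 0.0131) was lost without untreated or 6 h replicate 2 of microglia (adjusted p = 0.0573 and 0.0519) was -0.12 with low values raised to the array median, and was 2.63 with the third-run WT arrays (adjusted p = 0.969). That of C1ra (-1.07, adjusted p = 0.0371) was lost without any array but 6 h replicate 1 of microglia (adjusted p = 0.0529 to 0.114), was 1.29 with the third-run WT arrays (adjusted p = 0.972) and 0.56 with low values raised to the array median (adjusted p = 0.13).

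The NF-kB list holds subunits, inhibitors and targets of that inflammatory pathway. It rose in 10 of 13 members in microglia and in 0 in BV-2, with medians of 1.23 and 0.26. The 0 risen in BV-2 is near the share of 1.82% over all genes tested. In 5 members the responses differed. Nfkbib, an inhibitor, read 8.28 and 8.34 then 9.97 and 9.92 in microglia, and 7.88 and 7.62 then 7.69 and 7.62 in BV-2 (difference -1.73 ± 0.217, adjusted p = 0.00365). Traf1, an adaptor of receptors of the tumour necrosis factor family, rose by 2.93 in microglia and changed by 0.16 in BV-2 (difference -2.78 ± 0.296, adjusted p = 0.00208), and the inhibitor gene Nfkbie differed by -1.70 ± 0.237 (adjusted p = 0.00522). With the third-run WT arrays these differences were 0.16 and 0.64 (adjusted p = 0.996 and 0.895), and with low values raised to the array median that of Traf1 was -0.67 (adjusted p = 0.118). Relb differed by -1.55 (adjusted p = 0.0212), lost without either untreated array or 6 h replicate 2 of microglia, or without 6 h replicate 2 of BV-2 (adjusted p = 0.0618 to 0.0767), and by 0.16 with the third-run WT arrays (adjusted p = 0.995).

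Genes of cholesterol synthesis moved down in microglia. Of 14 measured, 11 fell and 1 rose there and 0 did either in BV-2, with medians of -1.19 and 0.13, and 6 differed. In BV-2 0% of all genes tested fell and 1.82% rose, so 0 calls in BV-2 is near the share of all genes. Idi1 read 8.62 and 8.05 then 6.81 and 6.40 in microglia, and 8.23 and 8.08 then 8.53 and 8.34 in BV-2 (difference 2.00 ± 0.323, adjusted p = 0.0092). Stard4, a carrier of sterols, and Msmo1, an oxidase of the pathway, fell by 2.08 and 1.48 in microglia and differed by 2.00 ± 0.283 and 1.76 ± 0.267 (adjusted p = 0.00554 and 0.00719). The 1 that rose was Ch25h, whose product 25-hydroxycholesterol represses the pathway. It read 9.50 and 9.95 then 12.21 and 12.37 in microglia, and 4.67 and 4.97 then 4.50 and 4.61 in BV-2 (difference -2.83 ± 0.280, adjusted p = 0.00155). Of 22 cell cycle genes 11 fell and 1 rose in microglia and 0 did in BV-2, and no difference was called. The 0 calls in BV-2 are again near the share of all genes.

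**Figure D3:**
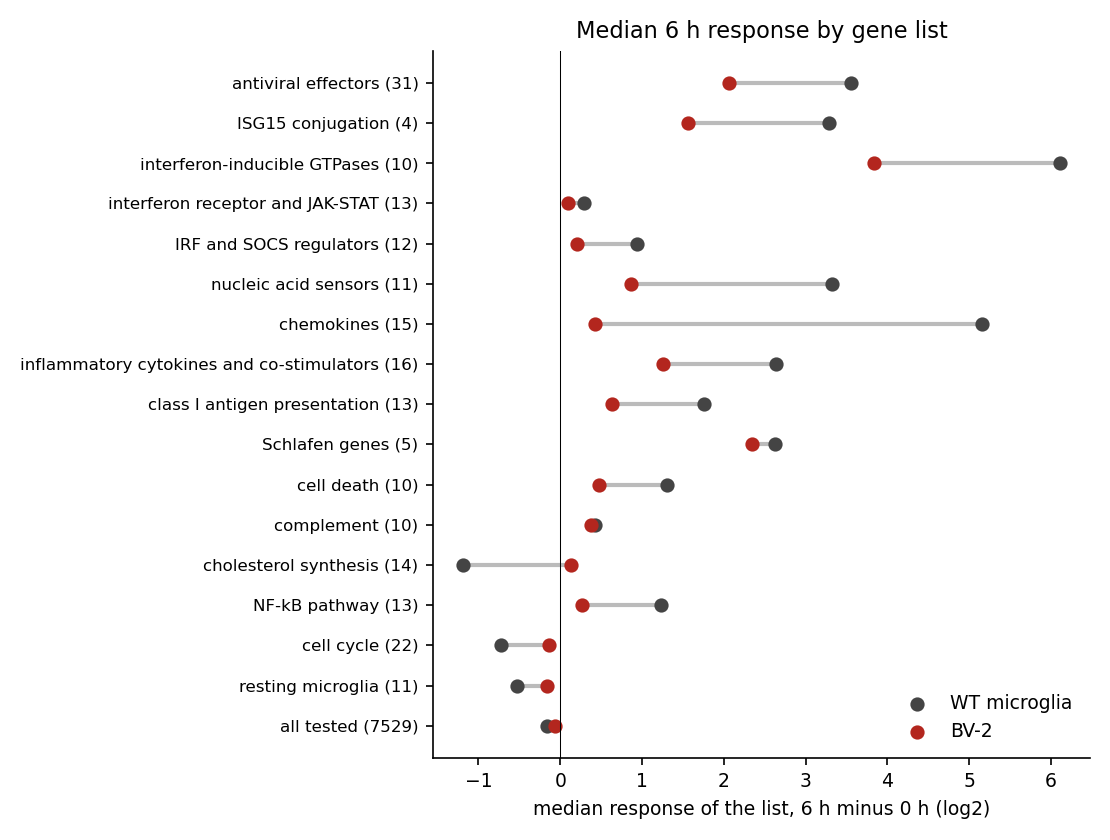
Median response of each gene list (log2, number of measured members in brackets) in WT microglia (grey) and BV-2 cells (red) at 6 h, with all genes tested at the bottom. Chemokines are farthest apart (5.16 and 0.42) and cholesterol synthesis is the list below 0 in microglia (-1.19) and not in BV-2 (0.13).

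Among the microglia-only genes that fell, Dkk2, a secreted inhibitor of Wnt signalling, read 8.21 and 8.98 then 2.98 and 3.33 in microglia, and 2.87 and 2.81 then 3.29 and 2.98 in BV-2 (difference 5.72 ± 0.372, adjusted p = 0.00024). Gpr34, a receptor gene typical of microglia, read 7.33 and 8.95 then 2.53 and 2.85, and 2.70 and 2.43 then 2.57 and 2.25 (difference 5.29 ± 0.630, adjusted p = 0.00301). For both all 4 BV-2 arrays were far under the array median, as were the treated microglia arrays, so that a fall in BV-2 could not be seen and the differences describe the fall in microglia. On the 4 third-run WT arrays they read 2.67 to 2.83 and 2.48 to 2.81 with or without IFN-b, so no fall could be seen there either, and the differences were 0.30 and -0.11. St8sia4 and St6gal1, which add sialic acid to glycans, fell by 4.17 and 3.72 in microglia. In BV-2 the first read 8.55 and 7.99 then 9.04 and 8.83, and the second 8.45 and 7.94 then 8.14 and 7.41 (differences 4.83 ± 0.349 and 3.30 ± 0.422, adjusted p = 0.000376 and 0.0038). Tcim fell by 2.41 and differed by 2.99 ± 0.370 (adjusted p = 0.00343). Slc40a1, the iron exporter, fell by 3.27 and differed by 3.09 ± 0.552 (adjusted p = 0.0138; 0.0605 without untreated replicate 2 of microglia). Among 11 genes of resting microglia 3 fell and 1 rose in microglia, shares near those of all genes tested (21.9% and 13.6%). The 1 that rose was P2ry12, a receptor for ADP, with a difference of -1.37 (adjusted p = 0.0185) that was lost without 5 arrays, untreated replicate 1 or 6 h replicate 2 of microglia or any of the BV-2 arrays but untreated replicate 1 (adjusted p = 0.054 to 0.0596).

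The BV-2-only class held H2aw, a histone gene, and Mpeg1, a pore-forming protein of macrophages. H2aw read 9.14 and 9.14 then 9.21 and 8.99 in microglia, and 7.30 and 7.69 then 8.61 and 8.63 in BV-2 (difference 1.17 ± 0.251, adjusted p = 0.0255). Mpeg1 read 12.67 and 12.77 then 12.66 and 12.88, and 10.03 and 10.40 then 11.24 and 11.41 (difference 1.05 ± 0.257, adjusted p = 0.0386). Both stayed lower in BV-2 than in microglia at 6 h. H2aw left the class without any single array but 6 h replicate 1 of microglia and untreated replicate 2 of BV-2 (adjusted p = 0.0688 to 0.0837), and Mpeg1 without any but the latter (adjusted p = 0.0638 to 0.12). Cyp4v3, a cytochrome P450, fell by 0.96 in microglia and rose by 1.19 in BV-2 (difference 2.15 ± 0.294, adjusted p = 0.00477). The difference was called without each single array, whereas both opposite responses were called in 2 of the 8 cases, without untreated replicate 1 or 6 h replicate 2 of BV-2.

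A smaller response can go with a higher start or a lower end, and both occurred. Of the 437 genes that rose in microglia with a lower BV-2 response, 91 began at least 1 log2 unit higher in BV-2, 90 at least 1 lower and 256 within 1. At 6 h 299 were at least 1 lower in BV-2, 123 within 1 and 15 at least 1 higher. These genes were chosen for a lower BV-2 response, so a downward shift of BV-2 relative to microglia by 6 h was given by the choice. In 63 genes, Usp18 and Oasl1 among them, the BV-2 level was at least 1 higher untreated and within 1 at 6 h. These gaps are between levels of arrays from different runs, which the design does not separate from the cell system. Over all 7529 genes 1464 were at least 1 higher and 1417 at least 1 lower in untreated BV-2 cells. At 6 h 1832 were at least 1 higher and 1593 at least 1 lower. Of the 7529 genes 239 were at least 1 higher in untreated BV-2 cells and within 1 at 6 h.

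**Figure D4:**
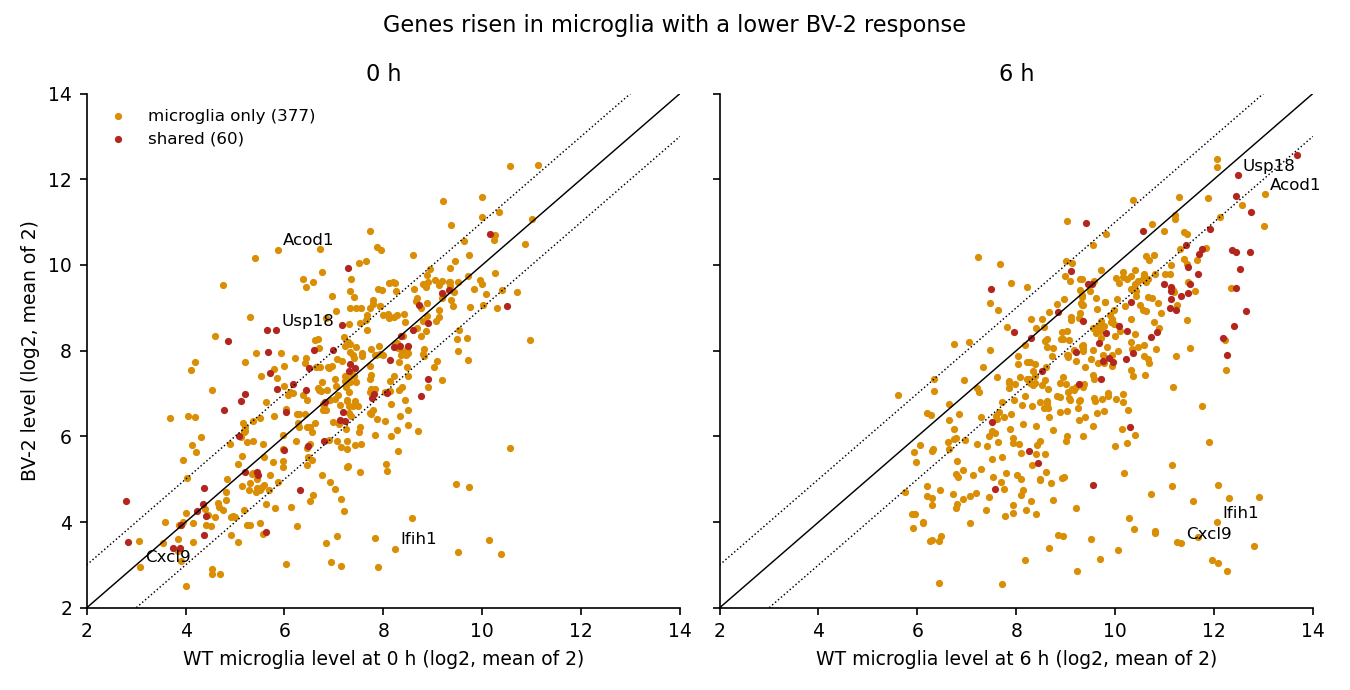
Mean level in BV-2 cells (vertical axis) and WT microglia (horizontal axis), log2, at 0 h (left) and 6 h (right) for the 437 genes that rose in microglia with a lower BV-2 response. The solid line marks equal levels and the dotted lines 1 log2 unit. Below the lower dotted line lie 299 of the genes at 6 h against 90 at 0 h. The genes were chosen for a lower BV-2 response, which sets the direction of this shift.

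At 24 h, compared against the same untreated arrays, fewer responses differed. The 24 h values come from a fit of 12 arrays, in which the 6 h responses of 1162 genes differed. In microglia 446 genes rose and 432 fell, in BV-2 146 rose and 15 fell, and the responses of 122 genes differed (1.62% of those tested). Of the 131 shared genes 114 were still risen in microglia and 97 in BV-2, and 21 differed. Of the 740 microglia-only genes 157 were higher and 120 lower in microglia, 12 higher and 3 lower in BV-2, and 71 differed. Cxcl9 (difference -6.45, adjusted p = 3.74e-06), Slfn1 (-5.67, adjusted p = 7.2e-07), Gbp2b (-4.78, adjusted p = 1.18e-05) and Usp18 (-1.96, adjusted p = 0.00471) remained apart. All of these but Usp18 had been measured only through the 2 microglia arrays on which they were high. Cxcl11 had receded in microglia to a response of 1.695, with a difference of -1.72 that did not pass (adjusted p = 0.0699). Without single arrays the count of 122 was 52 to 79: 61 and 64 without untreated replicates 1 and 2 of microglia, 79 and 57 without its 24 h replicates, 68 and 64 without the untreated replicates of BV-2 and 52 and 65 without its 24 h replicates.

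The comparison was repeated, as values without a test, on 8 arrays that the classes had not used, BV-2 cells with a Usp18 siRNA and the third-run WT microglia. Of 801 shared and microglia-only genes with a called difference, 295 (36.8%) had the same sign there, against 45.9% of all genes tested. Of these arrays, 2 go against their labels. The array labelled untreated WT replicate 1 of the third run read 12.97 for Usp18 and 12.85 for Cxcl10, as high as the treated arrays, and the array labelled BV-2 Usp18 siRNA 6 h replicate 2 read 9.96 for C1qa against 3.93 on its replicate. Without them, which was decided after seeing the data, 624 (77.9%) had the same sign, against 59.3% of all genes, with 93.4% of the 61 shared genes, 83.0% of the risen and 70.0% of the fallen microglia-only genes.

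The other untreated WT array of the third run was also above the first-run arrays in several interferon genes. It read 9.31 for Usp18, 8.38 for Cxcl10, 9.04 for Gbp2 and 11.77 for Acod1, whereas Mx1, Cxcl9 and Gbp2b read 4.64, 2.87 and 4.38. Set against that array alone, 100 of the 131 shared genes rose in third-run microglia, as did 78 of the 377 microglia-only genes that had risen, and 4 of the 363 that had fallen fell. Of the 63 named genes with a called difference 2 kept their call, Gbp2b at -4.69 and Ifih1 at -3.06 (adjusted p = 0.0239 and 0.0474), though Ifih1 lost it in the fit of 24 arrays (adjusted p = 0.389). These values use the same BV-2 arrays as the first comparison and rest on a single untreated WT array. Genes lower in BV-2 with either set of WT arrays were Gbp2b, Ifih1, Ms4a4c (-5.90), Ddx60 (-4.48), BC023105 (-4.14), Ifi44l (-3.44), Ifi202b (-3.40), P2ry14 (-3.37), Il15 (-3.05), AW112010 (-2.87) and LOC664787 (-2.68), 11 in all, most of them named here after their values were seen. Ms4a4c, the largest of them, read 5.12 and 5.34 then 11.65 and 11.51 in first-run microglia, and 3.86 and 4.02 then 4.09 and 4.88 in BV-2. It was under the array median on every BV-2 array and on both untreated microglia arrays. It was thus measured only through the treated microglia arrays and had to differ between microglia at 0 h and 6 h. Its difference describes microglia against low BV-2 readings.

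**Figure D5:**
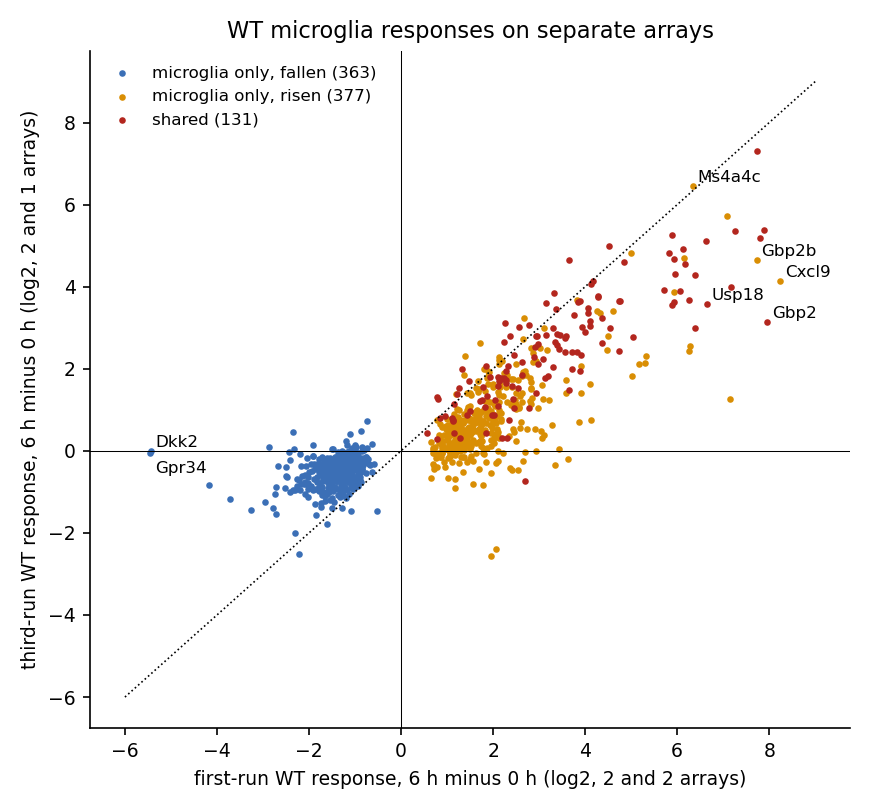
Response of WT microglia at 6 h on the first-run arrays (horizontal axis) and on the third-run arrays without the untreated array labelled replicate 1 (vertical axis), log2, for the shared and microglia-only genes. Most risen genes lie between 0 and the dotted line of equal responses, Ms4a4c lies on it, and Dkk2 and Gpr34 lie at 0 on the vertical axis.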

How the data were processed

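Total RNA was measured on Affymetrix 3′ expression arrays of 22690 probe sets. The deposited values are taken as log2 intensities from their range (1.874 to 14.031 on these arrays). How the authors summarised and normalized them is not stated in the labels, and neither is the log base. The submitters' processing notes name affy. Values were used as deposited. Of the probe sets 20393 had 1 gene, 691 several (left out) and 1606 no entry. Probe sets brighter than the array median on 2 or more of the 8 arrays were kept, and the brightest on average stood for its gene.

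Responses and their difference were tested with limma 3.58.1 in R 4.3.3 (4 group means, 4 residual degrees of freedom, empirical Bayes, two-sided, Benjamini-Hochberg). The fit was also run on simulated data with independent noise on each array and no replicate effect. That run therefore does not cover a pairing of replicates. P-values measure the spread between 2 arrays a group, and this number limits the precision. Deviations of equally numbered replicates correlated at 0.379 to 0.654 between times in microglia and 0.302 to 0.722 in BV-2; with 2 pairs this is a hint of pairing. Members, the 17 gene lists and the marker lists were chosen with earlier results of these data known. Named were up to 6 genes per class and direction (shared genes by the smaller response, others by the difference), up to 4 classed genes per list by the difference, Usp18 and the receptor chain, 76 in all. Kdr, Rtp4, Ccl2, Il6 and the genes lower in BV-2 with both sets of WT arrays other than Gbp2b and Ifih1 were named after their values were seen. So were C1qb and Aif1. Alternatives covered the filter, probe set choice, scaling, a floor, the replicate block, other arrays in the fit, other WT arrays, a log2 minimum of 1 and leaving out each array. Promoters came from RefSeq (GRCm38.p6). Figures were drawn with matplotlib 3.10.9 in Python 3.11.15.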

Additional observations from a re-analysis of the deposited data

Results flagged for a closer look

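The responses of BV-2 cells and WT microglia differed, by the test of the difference itself, for 810 genes at 6 h. A separate fit of 12 arrays gave 122 at 24 h. The differences at 6 h include 63 of the 76 named genes. The values below are the BV-2 response minus the microglia response at 6 h (log2), and a negative value means the lower response in BV-2. Antiviral, Isg15 and GTPase genes had differences of -3.25 for Oas3, -3.21 for Ifih1, -3.14 for Oasl1, -3.08 for Isg20, -3.04 for Usp18, -1.93 for Ube2l6, -1.53 for Uba7, -3.68 for Iigp1, -2.92 for Gbp6, -2.10 for Mx2, -1.73 for Gbp2, -1.78 for Mx1, -7.76 for Gbp2b and -6.35 for Cmpk2. Receptor, signalling and regulator genes had differences of 1.50 for Ifngr1, -1.18 for Stat3, -0.95 for Jak2, -3.04 for Irf7, -2.83 for Socs1 and -1.46 for Irf5. Sensors had differences of -1.90 for Zbp1, -1.60 for Sting1 and -1.53 for Aim2. Chemokines and cytokine or co-stimulator genes had differences of -7.70 for Cxcl9, -6.44 for Cxcl11, -5.89 for Ccl5, -4.30 for Ccl12, -5.86 for Acod1, -3.89 for Cd40, -3.68 for Il1rn and -3.09 for Tnfsf10. Antigen presentation, Schlafen and cell death genes had differences of -2.47 for Tap1, -1.98 for Tap2, -1.93 for Psmb8, -1.87 for Psmb9, -4.71 for Slfn1, 1.49 for Slfn3, 1.86 for Bcl2l11, -1.62 for Daxx, -1.42 for Bak1 and -1.13 for Casp4. Complement and NF-kB genes had differences of -3.69 for Cfb, -2.06 for C2, -1.82 for Serping1, -1.07 for C1ra, -2.78 for Traf1, -1.73 for Nfkbib, -1.70 for Nfkbie and -1.55 for Relb. Cholesterol genes had differences of -2.83 for Ch25h, 2.00 for Idi1, 2.00 for Stard4 and 1.76 for Msmo1. Genes of resting microglia and other genes that fell in microglia had differences of 5.72 for Dkk2, 5.29 for Gpr34, 4.83 for St8sia4, 3.30 for St6gal1, 3.09 for Slc40a1, 2.99 for Tcim and -1.37 for P2ry12. Genes of the BV-2-only and opposite classes had differences of 1.17 for H2aw, 1.06 for Mpeg1 and 2.15 for Cyp4v3.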

How the results depend on the processing

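Leaving out 1 array gave 324 to 969 genes with different responses at 6 h, 1670 to 2616 responding in microglia, 95 to 120 in BV-2, 94 to 113 shared, 288 to 914 microglia-only and 0 to 2 BV-2-only genes, and 52 to 79 differing at 24 h. Of the 63 named genes with a called difference, 40 kept the call without any single array and 23 lost it without 1 array or more. No other alternative on the first-run arrays but the floor turned the sign of a named difference that was called. With the replicate block the counts were 1902 different, 213 responding in BV-2, 1714 microglia-only, 11 BV-2-only and 725 at 24 h, with 11 genes fallen in BV-2 and 1071 of the differences higher and 831 lower, and the block ended no named call and gave calls to Cxcl10 (-0.77), Ifi209 (-1.28), Stat2 (-1.24) and Tyk2 (-0.87). With 24 arrays in the fit 318 differed, 295 were microglia-only and 1 BV-2-only. Fitted alone, BV-2 had 75 responding genes. A log2 change of at least 1 left 1263 responding in microglia and gave 4 BV-2-only genes, centring gave 1 and the floor 6. With the third-run WT arrays, the doubted one included, in place of the first, 1 gene differed, 1 responded in microglia and 1 in BV-2, 0 were shared, 0 microglia-only and 1 BV-2-only. With the doubted array left out (chosen after seeing the data) 12 differed, 218 responded in microglia, 10 were microglia-only and 1 BV-2-only. On the arrays of the other siRNA and run 295 genes kept the sign, and 624 without the 2 doubted arrays. Leaving out an array or fitting BV-2 alone leaves fewer arrays, and otherwise the cause was not tested.

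With low values raised to the array median the sign of a named difference turned for Ifit1 -1.63, Aim2 0.06 and C1ra 0.56. With the third-run WT arrays, the doubted one included, it turned for these called differences, Gbp2 4.59, Mx1 2.53, Acod1 0.76, Gpr34 -0.25, Oas3 0.11, Oasl1 0.49, Isg20 0.98, Usp18 1.86, Ube2l6 0.23, Uba7 0.72, Iigp1 1.80, Gbp6 2.13, Mx2 0.84, Ifngr1 -0.16, Jak2 0.99, Irf7 0.97, Irf5 0.03, Zbp1 2.24, Sting1 0.09, Ccl12 1.11, Cd40 0.20, Il1rn 0.15, Tnfsf10 0.17, Tap1 0.27, Tap2 0.41, Psmb8 0.03, Psmb9 0.47, Bcl2l11 -0.09, Daxx 0.51, Casp4 0.48, Serping1 1.38, C1ra 0.50 and Nfkbie 0.29. With the doubted array left out it turned for Gbp2 3.09, Acod1 0.03, Gpr34 -0.11, H2aw -0.33, Usp18 0.03, Gbp6 0.49, Jak2 0.22, Zbp1 0.40, Serping1 2.63, C1ra 1.29, Traf1 0.16, Nfkbie 0.64 and Relb 0.16. Differences not called in the first place also turned, with the doubted array for Cxcl10 4.64, Ifi209 3.20, Stat2 1.27, Irf1 1.03, Slfn2 1.00 and Tyk2 0.27, and without it for Cxcl10 2.40, Ifi209 0.62 and Slfn2 0.35. The uncalled differences of Ifit1 and Slfn4, both near 0, also turned with centring, renewed quantile normalization and without some single arrays. Detection calls were not used here, so changes that begin or end under the array median are limited by the floor of the array. Of 26 other kept probe sets of the named genes 25 had the same sign of the difference, the exception being 1 of Jak1, whose difference was not called. Only the sign was compared in this count, and sizes could differ, as for Cmpk2 (BV-2 changes of 0.73 and 1.95). The other kept probe set of Irf5 changed by -0.00 in microglia and -0.04 in BV-2, so the rise in microglia was not seen on it. That of Tap1 changed by 1.72 in microglia and only 0.17 in BV-2.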
